A study of Homo sapiens with 9 samples.

Results

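The caspase and apoptosome genes are a chosen list of 8 of the 26475 gene symbols in the count table: CASP2, CASP4, CASP6, CASP8, CASP9, CASP10, APAF1 and CFLAR. They were taken by symbol, and all 8 passed the filter on low counts that left 16417 genes for testing. The values come from A375, an established human melanoma cell line with mutant BRAF, cultured for 24 h with the vehicle DMSO or with TP-472 at 5 µM or 10 µM. TP-472 is a small molecule that inhibits the bromodomain proteins BRD9 and BRD7. Each of the 3 groups had 3 libraries, described by the submitters as biological replicates, and all came from this single cell line. Of 8 melanocytic marker genes, SOX10, MITF, PMEL and S100B were at 1 CPM (counts scaled to library depth) or more in every group, whereas TYR was at 0 in all 9 libraries and MLANA averaged 0.173 CPM in DMSO.

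Caspases are cysteine proteases that are made as inactive zymogens, so the mRNA measured here is the supply of the zymogen and not its activity. In the extrinsic pathway, ligand-bound death receptors recruit caspase-8 and caspase-10 through the adaptor FADD, and CFLAR (c-FLIP) competes with them in that complex. In the intrinsic pathway, cytochrome c released from mitochondria makes APAF1 assemble into the apoptosome, which activates caspase-9, and both routes converge on the executioner caspases. Loss of APAF1 is a known event in melanoma.

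The 9 libraries held 42483091 to 51298130 expected counts each, of which genes of ribosomal RNA took 8.20% to 19.9%. The members had 190 to 2473 counts per library, with CASP10 the lowest and CASP2 the highest. One library, 10 µM replicate 1, was far from the other 2 of its group. Its median absolute log2 difference from them over all tested genes was 0.412, against 0.0729 to 0.249 for the other 8 libraries in their own groups. Its log2 difference was -0.42 in the median for the fifth of genes with the longest transcripts and 0.20 for the fifth with the shortest. The differences of the 8 members at 10 µM against DMSO are therefore given with and without it. Fold changes of other genes at 10 µM include it unless stated otherwise, and their dependence on it is shown only where values or calls without it are given. Markers of other cell types, 4 genes each, were summed per library. The keratinocyte sum was 49.4 to 56.7 CPM in DMSO, 62.0 to 65.9 under 5 µM and 67.1 to 97.7 under 10 µM TP-472, the fibroblast sum 25.5 to 26.3, 16.0 to 17.9 and 9.01 to 13.3, and the endothelial sum 4.16 to 5.56, 5.67 to 9.35 and 10.3 to 16.3. The leukocyte sum was 0.103 to 0.423, 0.197 to 0.308 and 0.367 to 1.55 CPM, with CD3E at 0 in every library, KRT1 was at 0 in DMSO and at 10 µM, and THY1 was at 0 at both doses. Single genes made up most of the keratinocyte, fibroblast and endothelial shifts. In DMSO, at 5 µM and at 10 µM, KRT10 averaged 44.4, 56.0 and 70.1 CPM. PDGFRB averaged 22.8, 12.4 and 8.59 CPM, and KDR 1.92, 5.72 and 10.9 CPM. The means of PECAM1 and DCN moved against their sums at both doses, and those of KRT5, LUM and VWF at 5 µM. The part of these marker shifts in the results was not tested.

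CASP2 was the only member that passed the test against DMSO in the fit of all 9 libraries, and it fell at 10 µM. Of the other 7 members, CASP9 and CASP10 had higher values at 10 µM that missed the adjusted threshold, and CASP4, CASP6, CASP8, APAF1 and CFLAR had differences with 95% intervals that spanned 0. A gene passed at an adjusted p under 0.05 in the quasi-likelihood F test of edgeR, adjusted by Benjamini and Hochberg's method over all 16417 genes. At 10 µM against DMSO, 0 members rose and 1 fell, beside 16.4% of all tested genes that rose and 18.0% that fell. At an unadjusted p under 0.05 these counts were 2 and 1, beside 21.7% and 22.3%. At 5 µM against DMSO, 0 members passed in either direction, beside 4.4% and 5.81% of all genes, and DESeq2 and limma-voom also called 0. An unadjusted p under 0.05 was reached there by 0 members, beside 11.6% of all genes in the higher and 12.8% in the lower direction. The median log2 fold change of the 8 members was 0.08 at 5 µM and 0.09 at 10 µM, against 0.0054 and 0.011 for all tested genes. Between the doses it was -0.06, against 0.0012. With a fold change of at least 1.5 also required, no member was called, beside 8.57% higher and 10.5% lower among all genes at 10 µM, 2.14% and 2.72% at 5 µM, and 1.42% and 2.59% between the doses.

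**Figure D1:**
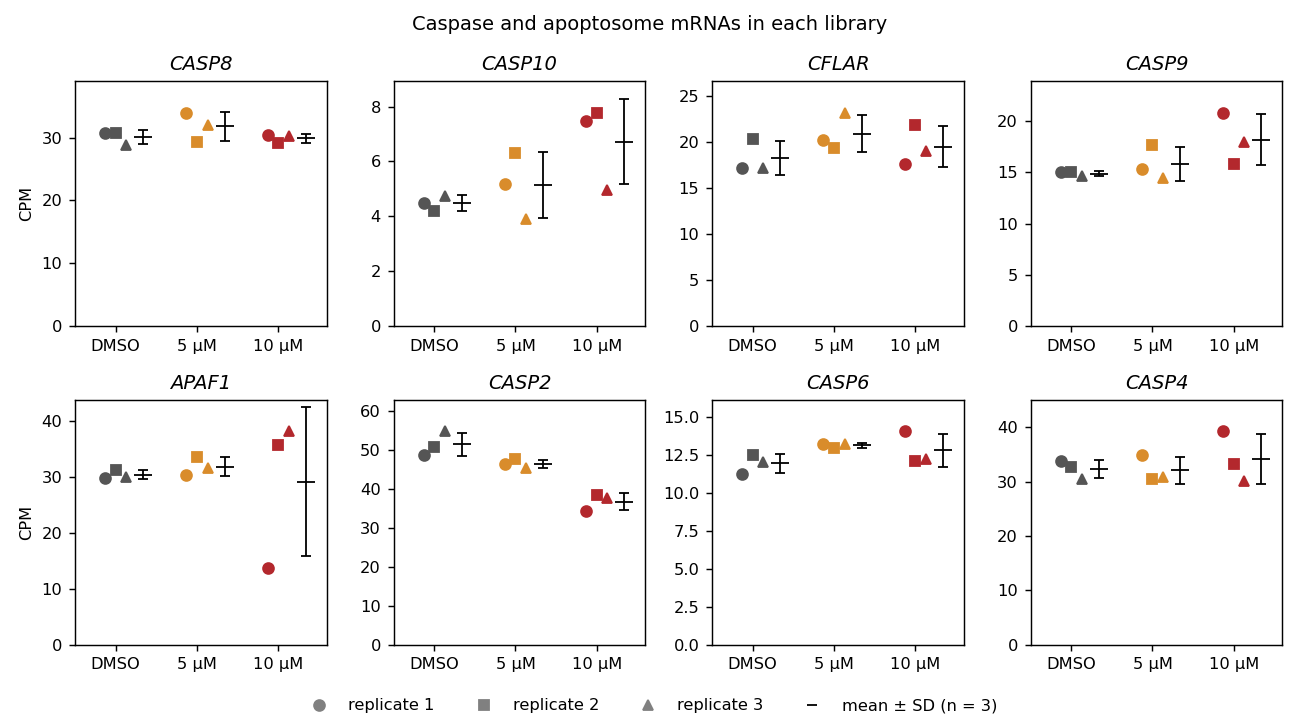
Level of each of the 8 mRNAs in CPM (vertical axes, each from 0) in every library of DMSO, 5 µM and 10 µM TP-472. Symbols mark replicates 1, 2 and 3, and the bars are the mean ± SD (n = 3): CASP2 is below its DMSO range in all 3 libraries at 10 µM, and APAF1 in 10 µM replicate 1 lies at 13.8 CPM, far under the other 8 libraries.

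CASP2 encodes caspase-2, an initiator with a long CARD prodomain that is activated on the PIDDosome, a complex scaffolded by PIDD1 and known for its response to DNA damage and to extra centrosomes. The gene (ENSG00000106144.19) lies at chr7:143288215-143307696 on the plus strand of GRCh38. Its level was 48.9, 50.9 and 54.8 CPM in DMSO, 46.4, 47.6 and 45.4 under 5 µM TP-472 and 34.4, 38.4 and 37.6 under 10 µM TP-472, in the order of replicates 1, 2 and 3. The 3 groups did not overlap: every 5 µM library was below every DMSO library, and every 10 µM library was below all of those. Among all tested genes, 25.0%, 26.0% and 16.2% were lower without overlap at 5 µM against DMSO, at 10 µM against DMSO and at 10 µM against 5 µM. CASP2 fell by 28.6% at 10 µM against DMSO (log2 fold change -0.49, SE 0.08, 95% interval -0.66 to -0.31, adjusted p = 0.00116). At 5 µM the log2 difference was -0.15 (95% interval -0.32 to 0.03, adjusted p = 0.289), so the lower values there were within the error of the fit.

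Between the doses, CASP2 was lower at 10 µM than at 5 µM by a log2 difference of -0.34 (SE 0.08, 95% interval -0.51 to -0.16, adjusted p = 0.0287), beside 5.53% of all genes that were lower and 2.87% that were higher. In the other direction 0 members passed, and at an unadjusted p under 0.05 the counts were 0 higher and 1 lower, beside 10.8% and 14.0% of all genes. No member was higher without overlap between the doses, beside 12.1%, and the adjusted p of the other 7 members lay between 0.303 and 0.847. Without 10 µM replicate 1 the log2 fold change of CASP2 was -0.44 against DMSO (adjusted p = 2.48e-05) and -0.29 against 5 µM (adjusted p = 0.00279), and the lower value at 5 µM against DMSO then passed (adjusted p = 0.0484), in a fit that called 16.5% of all genes higher and 17.6% lower at 5 µM. The call between the doses was lost without any 1 of the DMSO or 5 µM libraries (adjusted p = 0.0534 to 0.109), in a fit of only the 2 dose groups (0.150) and once trends of the counts with transcript length and GC were taken out (0.155, an alternative chosen after seeing the data). The log2 fold change was -0.36 to -0.32 in the fits without 1 of those libraries or with only the 2 dose groups, and -0.20 with the trends taken out, against -0.34 in the fit of all libraries. In bulk RNA, less CASP2 mRNA per cell and fewer cells that carry it cannot be told apart.

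**Figure D2:**
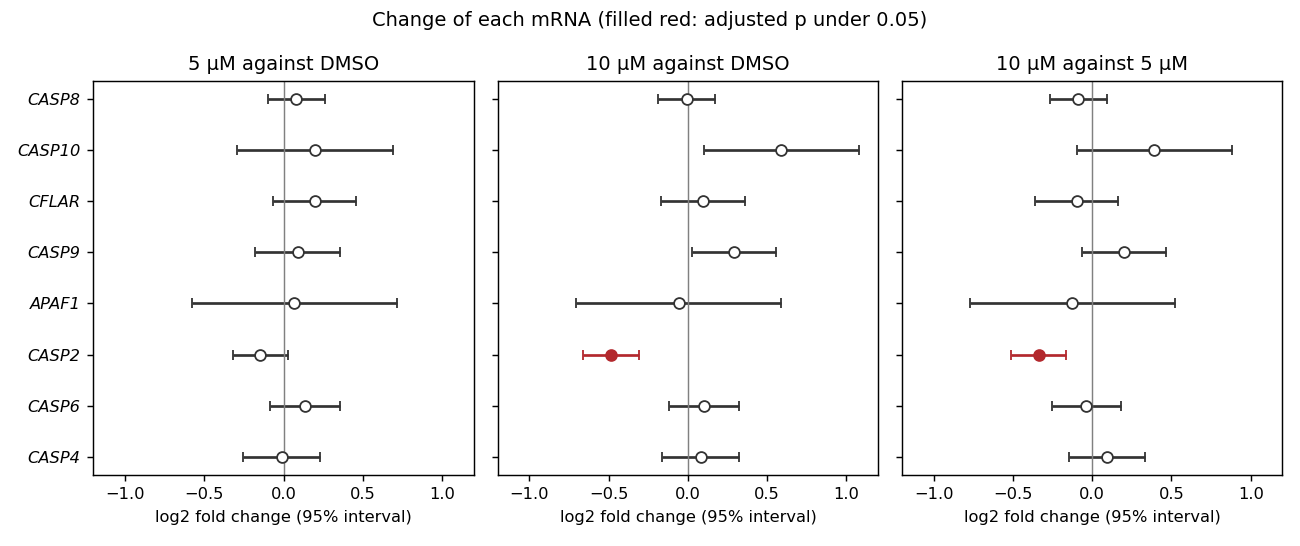
Log2 fold change (horizontal axes) of each of the 8 mRNAs in 3 comparisons, with bars for the 95% interval from the edgeR fit and filled red points for adjusted p under 0.05. CASP2 is filled at 10 µM against DMSO (-0.49) and at 10 µM against 5 µM (-0.34), and APAF1 has the widest intervals, at -0.70 to 0.59 for 10 µM against DMSO.

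The initiators of the extrinsic pathway and their regulator sit side by side on chromosome 2, all on the plus strand: CFLAR at chr2:201116104-201176687, CASP10 at chr2:201182881-201229406 and CASP8 at chr2:201233443-201287711. CASP10, which encodes an initiator recruited to death receptors together with caspase-8, was at 4.49, 4.18 and 4.75 CPM in DMSO, 5.17, 6.31 and 3.90 under 5 µM TP-472 and 7.46, 7.77 and 4.95 under 10 µM TP-472. All 3 libraries at 10 µM were above the 3 DMSO libraries, replicate 3 by the smallest margin, while the 5 µM libraries fell on both sides of DMSO. CASP10 was higher by 50.4% at 10 µM (95% interval 1.07-fold to 2.11-fold), and it missed the threshold after adjustment (adjusted p = 0.0633). DESeq2 called it (adjusted p = 0.0349), as did upper-quartile scaling (adjusted p = 0.0492), and it also passed without 10 µM replicate 3 (log2 fold change 0.77, adjusted p = 0.0183). It did not pass with limma-voom (adjusted p = 0.0797), without 10 µM replicate 1 (log2 fold change 0.51, adjusted p = 0.0658), without 10 µM replicate 2 (log2 fold change 0.47, adjusted p = 0.169) or without any 1 DMSO library (adjusted p = 0.123 to 0.182).

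CASP8 encodes the principal initiator caspase of the death receptor complex. Its level was 30.8, 30.7 and 28.8 CPM in DMSO, 33.9, 29.4 and 32.1 under 5 µM TP-472 and 30.4, 29.1 and 30.3 under 10 µM TP-472. The groups overlapped throughout, and the log2 difference from DMSO was 0.08 at 5 µM (95% interval -0.10 to 0.26, adjusted p = 0.636) and -0.01 at 10 µM (95% interval -0.19 to 0.17, adjusted p = 0.949). The interval at 10 µM covered 0.877-fold to 1.13-fold, so larger changes of CASP8 mRNA lay outside it. Without 10 µM replicate 1 the log2 difference at 10 µM was -0.02 (adjusted p = 0.825).

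CFLAR, the catalytically inactive relative of caspase-8 that restrains its activation, was at 17.2, 20.3 and 17.2 CPM in DMSO, 20.2, 19.3 and 23.2 under 5 µM TP-472 and 17.6, 21.9 and 19.0 under 10 µM TP-472. These values also overlapped between all groups, with a log2 difference from DMSO of 0.20 at 5 µM (95% interval -0.07 to 0.46, adjusted p = 0.363) and 0.10 at 10 µM (95% interval -0.17 to 0.36, adjusted p = 0.573). Without 10 µM replicate 1 the log2 difference at 10 µM was 0.16 (adjusted p = 0.222). Of the exonic bases of CFLAR, 10.1% overlap CFLAR-AS1 and IMPDH1P10 on the opposite strand, and 1.98% overlap AC007283.1 on the same strand. CFLAR-AS1 had 0 to 9 counts in any library, and the counts of IMPDH1P10 and AC007283.1 were not examined. The expected counts of CFLAR were not whole numbers in 9 of 9 libraries, which was true of CASP8 in 1, of APAF1 in 6 and of the other 5 members in 0.

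In the intrinsic pathway, CASP9 encodes the initiator that the apoptosome activates. The gene lies on the minus strand at chr1:15490832-15526534. CASP9 was at 15.0, 15.0 and 14.6 CPM in DMSO, 15.3, 17.7 and 14.5 under 5 µM TP-472 and 20.8, 15.8 and 18.0 under 10 µM TP-472. As for CASP10, the 3 libraries at 10 µM lay above the 3 DMSO libraries. The difference from DMSO was 1.22-fold (95% interval 1.02 to 1.47), with an adjusted p of 0.0882. The highest value came from 10 µM replicate 1, and without that library the log2 difference was 0.18 (adjusted p = 0.158), whereas without 10 µM replicate 2 it was 0.38 and passed (adjusted p = 0.0344). CASP9 and CASP10 were thus the 2 of 8 members whose groups did not overlap in the higher direction and CASP2 the 1 in the lower direction, beside 23.4% and 26.0% of all tested genes.

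APAF1, the scaffold of the apoptosome, had the largest spread of any member at 10 µM. The gene lies on the plus strand at chr12:98645141-98735433, and its median coding transcript of 4539 bases is the longest among the 8. On the opposite strand, ANKS1B overlaps 9.48% of its exonic bases and had 0 to 24 counts in any library. The level of APAF1 was 29.8, 31.3 and 30.0 CPM in DMSO, 30.3, 33.6 and 31.6 under 5 µM TP-472 and 13.8, 35.6 and 38.1 under 10 µM TP-472. The first of the 10 µM libraries was below every other library and the other 2 were above every other library, so the mean of 29.2 ± 13.4 CPM (SD, n = 3) describes none of them. The fit gave a log2 difference of -0.06 at 10 µM against DMSO (95% interval -0.70 to 0.59, adjusted p = 0.903) and 0.07 at 5 µM (95% interval -0.58 to 0.71, adjusted p = 0.925). Leaving out 10 µM replicate 1 narrowed the 5 µM bounds of APAF1 to -0.07 and 0.20. Its SE dropped there from 0.29 to 0.06, while its estimate stayed at 0.07 (adjusted p = 0.453).

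The APAF1 result thus turned on 10 µM replicate 1. In that library APAF1 was lower than in the other 2 of the group by a log2 difference of -1.42, a gap in the lowest 5.93% of all tested genes, while the gaps of the other 7 members lay between -0.21 and 0.31. Without it, APAF1 was higher at 10 µM than in DMSO by a log2 fold change of 0.28 (SE 0.07, 95% interval 0.13 to 0.42, adjusted p = 0.00359) and higher than at 5 µM by 0.21 (adjusted p = 0.0387). That fit called more genes in general, 23.0% higher and 25.8% lower at 10 µM against DMSO, and 8.8% higher and 15.4% lower against 5 µM. With the length and GC trend removed and all 9 libraries kept, the log2 difference was 0.08 (adjusted p = 0.780). The part of that library's shift with transcript length in its APAF1 value was not tested further.

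**Figure D3:**
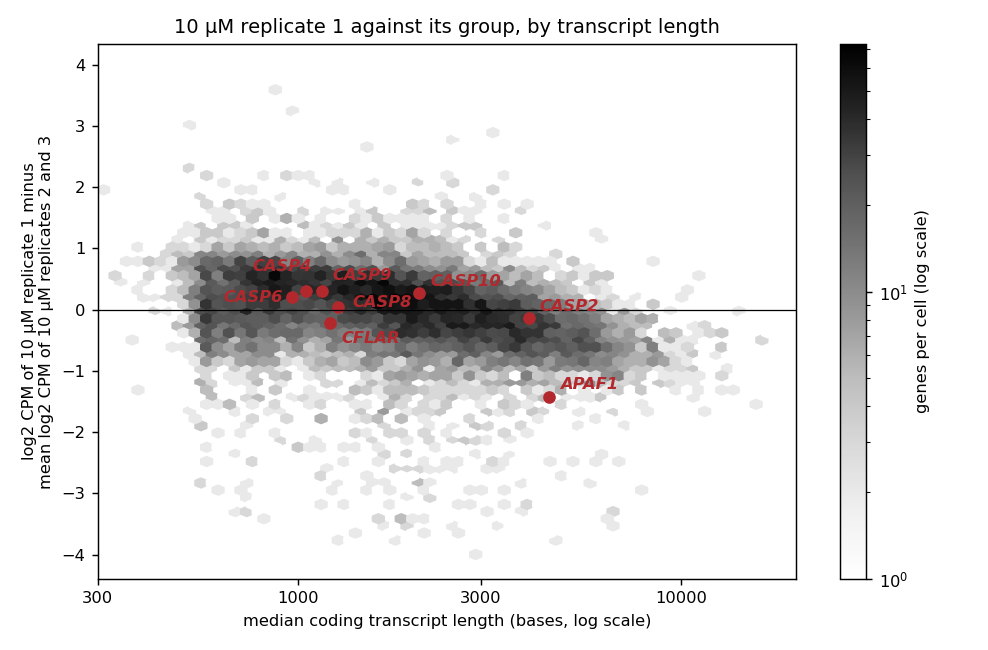
Log2 CPM of 10 µM replicate 1 minus the mean log2 CPM of the other 2 libraries of its group (vertical axis) against median coding transcript length (horizontal axis, log scale), with grey cells shaded by the number of genes. Genes with no coding transcript have the median over all their transcripts. Only genes with an annotated length are drawn, without those of extreme length or difference. The cloud bends down for long transcripts, the 8 members are in red, and APAF1 lies lowest among them at -1.42.

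CASP6 encodes an executioner caspase known for cleaving nuclear lamin A, and CASP4 encodes an inflammatory caspase that binds bacterial lipopolysaccharide in the cytosol. CASP6 (chr4:109688622-109703583, minus strand) was at 11.2, 12.5 and 12.0 CPM in DMSO, 13.2, 12.9 and 13.2 under 5 µM TP-472 and 14.0, 12.1 and 12.2 under 10 µM TP-472. The 5 µM libraries were all above DMSO and the 10 µM libraries overlapped it, and at 5 µM this was 1 of 8 members beside 23.7% of all genes without overlap in that direction. The log2 difference was 0.14 at 5 µM (95% interval -0.08 to 0.36, adjusted p = 0.461) and 0.10 at 10 µM (95% interval -0.12 to 0.32, adjusted p = 0.477). Without 10 µM replicate 1 the log2 difference at 10 µM was 0.02 (adjusted p = 0.855). CASP6 exons overlap those of MCUB on the opposite strand over 5.40% of their bases, and that gene, listed under its older symbol CCDC109B, had 544 to 960 counts per library. With the strand setting of the counting unknown, the shared bases could have been counted for either gene.

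CASP4 (chr11:104942866-104969436, minus strand) was at 33.8, 32.8 and 30.5 CPM in DMSO, 34.8, 30.5 and 30.9 under 5 µM TP-472 and 39.2, 33.2 and 30.1 under 10 µM TP-472. Replicate 1 was the highest in every group, and the groups overlapped. The log2 difference was -0.01 at 5 µM (95% interval -0.25 to 0.23, adjusted p = 0.964) and 0.08 at 10 µM (95% interval -0.16 to 0.32, adjusted p = 0.611), and at 10 µM it was -0.03 without replicate 1.

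The replicate spread of all 3 groups set what could be seen, as 1 fit served every comparison. The coefficient of variation of the members had a median of 5.24% in DMSO, 7.37% at 5 µM and 12.4% at 10 µM, against 5.18%, 7.52% and 20.0% for all tested genes. At 10 µM against DMSO the half-width of the 95% interval ran from 0.17 on the log2 scale for CASP2 to 0.65 for APAF1. At 10 µM against DMSO the interval of CASP10 ran from 0.10 to 1.08 on the log2 scale, and that of APAF1 from -0.70 to 0.59. A CASP10 rise of up to 1.08 and APAF1 changes in either direction thus lay within them.

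Compared per kilobase of transcript in DMSO, CASP10 was the least abundant member by either measure of length, at 0.589 ± 0.038 CPM per kilobase (SD, n = 3) over the union of annotated exons and 2.16 ± 0.14 over the median coding transcript. The order of the others depended on that measure. Over the exon union the means ran CASP2 (6.42), CASP6 (6.14), CASP4 (4.46), CASP8 (4.15), APAF1 (3.84), CASP9 (2.82) and CFLAR (0.810), and the ranges of CASP2 and CASP6 overlapped, as did those of CASP4 and CASP8. Over the median coding transcript they ran CASP4 (30.8), CASP8 (23.6), CFLAR (15.0), CASP9 (12.9), CASP2 (12.9), CASP6 (12.3) and APAF1 (6.69), with overlapping ranges among CASP9, CASP2 and CASP6. CFLAR moved from the seventh place to the third between the measures, as its exon union of 22529 bases is far longer than its median coding transcript of 1214 bases.

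The genes that act around these proteases were described by 8 lists with 54 genes, of which 47 were tested. At 10 µM against DMSO 13 of them rose and 5 fell, beside 16.4% and 18.0% of all genes, and without 10 µM replicate 1 the counts were 17 and 11, beside 23.0% and 25.8%. At 5 µM 6 rose and 3 fell, beside 4.4% and 5.81% of all genes, and without 10 µM replicate 1 14 rose and 9 fell, beside 16.5% and 17.6%. Of the list of further caspases, CASP1, the inflammasome protease, averaged only 0.701 CPM in DMSO. Its log2 difference at 10 µM against DMSO was -1.77 with an SE of 0.76 (adjusted p = 0.101). CASP5, the close relative of CASP4, was at 0 in every library.

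The mitochondrial death factors, proteins that can leave mitochondria in cell death, were the list with the largest share of members that rose at 10 µM against DMSO. Of its 5 genes, 4 rose and 0 fell at 10 µM, beside 16.4% and 18.0% of all genes. The median log2 fold change was 0.40, against 0.011 for all tested genes. With limma-voom 4 rose, and with DESeq2 and with both other scalings 5 rose. Of all 16417 genes, limma-voom called 2469 higher, DESeq2 3233, DESeq2-type factors 2788 and upper-quartile factors 3028. Without 10 µM replicate 1, 5 rose and 0 fell, beside 23.0% and 25.8% of all genes in that fit. CYCS, which encodes the cytochrome c that nucleates the apoptosome, averaged 125 ± 6.73 CPM in DMSO and rose to 207 ± 22.9 CPM with 10 µM (log2 fold change 0.73, SE 0.09, adjusted p = 0.000295). It also passed at 5 µM, at 166 ± 11.2 CPM (log2 fold change 0.41, adjusted p = 0.0217). AIFM1, a flavoprotein that can act in caspase-independent death, rose by 0.29 on the log2 scale (adjusted p = 0.0143). HTRA2, a serine protease that antagonizes inhibitors of apoptosis, rose by 0.37 (adjusted p = 0.0242). DIABLO also passed (log2 fold change 0.40, adjusted p = 0.0276), and ENDOG was at 0.45 (adjusted p = 0.0550).

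Of the apoptosome regulators, APIP and AVEN, 0 of 2 passed at 10 µM: APIP was at -0.26 (adjusted p = 0.0571) and AVEN at 0.34 (adjusted p = 0.0855) on the log2 scale. The inhibitor of apoptosis proteins, a family that shares the BIR domain, had 1 riser and 1 faller among 6 tested genes, beside 16.4% and 18.0% of all genes. BIRC5 (survivin), which also acts in chromosome segregation, averaged 76.6 ± 0.81 CPM in DMSO and fell to 43.6 ± 5.65 CPM with 10 µM (log2 fold change -0.81, adjusted p = 0.000229). BIRC3 rose by 0.31 on the log2 scale (adjusted p = 0.0374). XIAP, the direct inhibitor of caspase-9 and the executioners, was at 0.16 (adjusted p = 0.159). Without 10 µM replicate 1, BIRC2 and XIAP also passed in the higher direction and APIP and CASP1 in the lower.

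In the death receptor complex 4 of 7 tested genes rose and 1 fell at 10 µM, beside 16.4% and 18.0% of all genes. FAS averaged 17.8 ± 1.37 CPM in DMSO, 43.6 ± 3.42 under 5 µM and 59.8 ± 1.36 under 10 µM TP-472 (log2 fold change 1.75 at 10 µM, adjusted p = 9.73e-07), TNFRSF10B rose by 0.64, and TNFRSF1A fell by 0.70 on the log2 scale (adjusted p = 6.9e-05 and 0.000436). The adaptor FADD, through which caspase-8 and caspase-10 are recruited, was at 0.24 (adjusted p = 0.155), a gene named after its value was seen. Without 10 µM replicate 1, TRADD also passed in the lower direction.

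Among the CARD and DED adaptors, which share the interaction domains of the initiator caspases, 2 of 8 rose and 0 fell at 10 µM. The shares of all genes were 16.4% and 18.0%. PIDD1, the scaffold of the complex that activates caspase-2, was at 20.0 ± 0.78 CPM in DMSO, 30.8 ± 3.95 under 5 µM TP-472 and 33.1 ± 9.01 under 10 µM TP-472. It rose at both doses, by 0.62 on the log2 scale at 5 µM (adjusted p = 0.0482) and by 0.73 at 10 µM (SE 0.17, adjusted p = 0.00908), whereas CASP2 itself fell at 10 µM. The call at 5 µM was lost with upper-quartile factors (adjusted p = 0.0502), with limma-voom (0.0567) and without any 1 of the DMSO or 5 µM libraries (0.0655 to 0.165). Without 10 µM replicate 1 the log2 fold change at 10 µM was 0.48 (adjusted p = 0.000592). PEA15, a DED protein that binds FADD and caspase-8, rose by 0.54 (adjusted p = 0.000619). CASP8AP2, which despite its name is also known for histone gene expression, was at -0.55 (adjusted p = 0.0739), and it and NOL3 passed in the lower direction without 10 µM replicate 1.

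The inflammasome and pyroptosis genes, the surroundings of CASP4, had 1 riser and 2 fallers among 8 tested at 10 µM, beside 16.4% and 18.0% of all genes. NLRP1, a sensor that assembles an inflammasome, rose by 1.03 on the log2 scale (adjusted p = 0.000207). IL18 and IL1B, cytokines whose precursors inflammatory caspases cleave, fell by 0.87 and 0.62 (adjusted p = 0.00294 and 0.00364). Of 8 caspase substrates, 1 rose and 1 fell, beside the same shares of all genes. LMNA, which encodes lamin A, rose by 0.26 (adjusted p = 0.0389), PARP1 fell by 0.29 (adjusted p = 0.0187), and DFFA, the inhibitor of the caspase-activated nuclease, was at -0.12 (adjusted p = 0.264). Without 10 µM replicate 1, SPTAN1 also rose and GSDMD also fell.

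**Figure D4:**
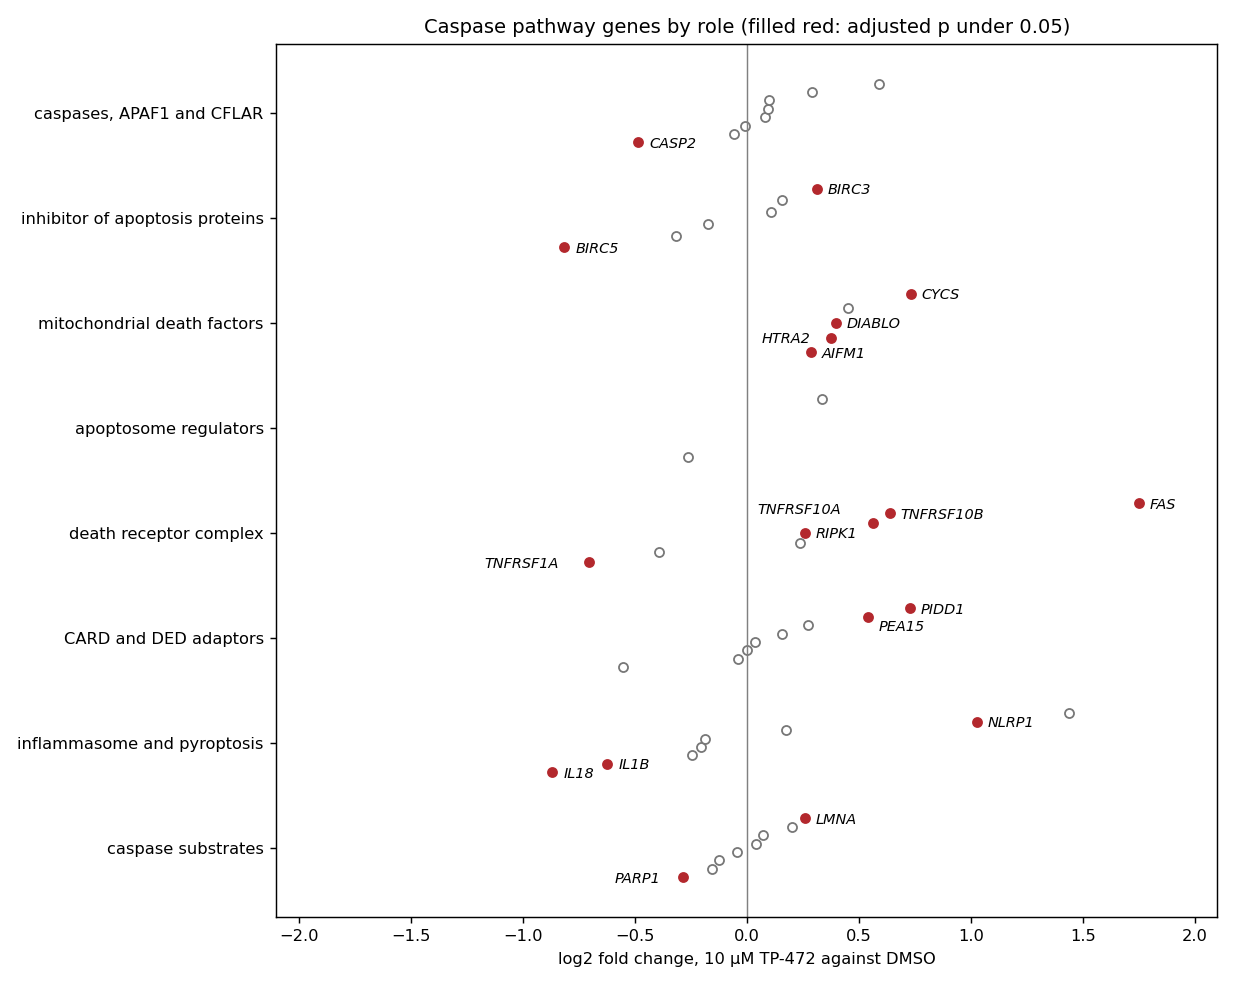
Log2 fold change at 10 µM TP-472 against DMSO (horizontal axis) of the tested genes of each list except the further caspases, with 1 point per gene and filled red points with names for adjusted p under 0.05. The 8 caspase, APAF1 and CFLAR genes hold 1 filled point, CASP2 at -0.49, and the mitochondrial death factors hold 4 of 5, all above 0. Of all tested genes 16.4% rose and 18.0% fell at that threshold.

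The genes whose log2 CPM followed that of a member most closely over the 9 libraries were named for CASP2 and CASP10, the members with the largest log2 differences at 10 µM. For CASP2 they were GLI2, DOT1L and MLLT6 (Pearson r = 0.99 for each), which averaged 19.9, 58.3 and 110 CPM in DMSO and 10.3, 38.5 and 60.5 CPM at 10 µM. For CASP10 they were GNGT2, PSTPIP2 and FLVCR2 (r = 0.96, 0.94 and 0.94), all under 1 CPM on average in every group. These likenesses are descriptions over 9 libraries that share their treatments, depth and scaling.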

How the data were processed

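RNA-seq libraries of A375 cells were analysed from 1 table. The authors deposited expected counts per gene symbol, not scaled to library size, and values with a fractional part made up 10.6% to 13.8% of each library. The submitters' processing notes list Bowtie2 2.1.0, RSEM 1.2.15 and the build hg38, with no role or order. The annotation, filters and strand setting of the counting were not given in the sources used here. Per the labels, mRNA was taken on oligo-dT beads for strand-specific libraries, whereas the design text of the series names depletion of ribosomal RNA.

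Expected counts were rounded and tested with edgeR 4.0.16 in R 4.3.3: TMM factors (0.957 to 1.03), filterByExpr (16417 genes), and the quasi-likelihood F test in 1 fit of 3 groups, with Benjamini-Hochberg adjustment over all tested genes. Standard errors were taken as |log2 fold change|/√F, and 95% intervals use the t distribution of the fit. CPM values use TMM-scaled library sizes. Sampling precision follows from 42483091 to 51298130 counts per library. Replicates differed by more than counting noise (chi-square per gene 5.77 to 346), so none was counted as 1 with another. Same-numbered libraries did not deviate together, so no block was used. The script was tested on simulated data.

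Alternatives were other scaling factors and filters, DESeq2 1.42.0, limma-voom (limma 3.58.1), fits of only the groups compared, a replicate block, other thresholds, removal of ribosomal RNA genes, each library left out in turn, and, added after seeing the data, spline offsets for transcript length and GC content (4 degrees of freedom). Named genes were the 8 members, the 3 genes of each pathway list with the smallest p at 10 µM against DMSO, and the 3 genes most correlated with each of the 2 members with the largest log2 differences at 10 µM. Pathway genes beyond these were named after their values were seen. Members and lists were chosen with earlier results of these data known. GENCODE release 29 (GRCh38) gave coordinates, lengths and overlaps. Python 3.11.15 with pandas 2.3.3 and scipy 1.17.1 made the tables. Protein and promoter sequences were not used here, and the results for some genes of the lists are not reported here.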

Additional observations from a re-analysis of the deposited data

How the results depend on the processing

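CASP2 at 10 µM against DMSO kept its direction and its call at an adjusted p under 0.05 under all alternatives run (log2 fold change -0.52 to -0.35, adjusted p at most 0.00918), and it was lost only where a fold change of at least 1.5 was also required, which left 0 members lower. Of 504 member values under alternatives, 471 kept their direction and side of the threshold, 12 lost the call, 6 gained it in the same direction and 15 changed sign, of which the 2 of APAF1 without 10 µM replicate 1 also gained it. All member values except those of CASP2 at 10 µM were uncalled in the fit of all libraries. The 1.5-fold minimum and the adjusted p under 0.01 reuse that fit, so its uncalled values could only stay the same there. At 5 µM against DMSO, 1 member was lower (CASP2) in a fit of only the 2 groups compared (adjusted p = 0.0404), and leaving out 1 library gave 0 to 1, the 1 being without 10 µM replicate 1. At 10 µM against DMSO, 1 member was higher with upper-quartile factors and 1 with DESeq2 (CASP10 in both), and leaving out 1 library gave 0 to 1: APAF1 without 10 µM replicate 1, CASP9 without replicate 2 (0.38, adjusted p = 0.0344) and CASP10 without replicate 3 (0.77, adjusted p = 0.0183). Between the doses, leaving out 1 library gave 0 to 1 members higher and 0 to 1 lower, and 0 were lower with only the 2 groups compared, with the length and GC trend removed (chosen after seeing the data), with the 1.5-fold minimum and at an adjusted p under 0.01. With the replicate number as a block, 0 members were lower between the doses (CASP2 adjusted p = 0.0503) and no other member's call changed, but the numbers are only names here, since the deviations of same-numbered libraries had r = -0.049 to 0.032 over 9 pairs. The cause of these changes was not tested.

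Sign changes were of values near 0 except for APAF1. At 5 µM against DMSO, CASP4 ran from -0.077 to 0.022 when 1 library was left out. At 10 µM against DMSO, CASP8 was at 0.00078 with DESeq2-type factors, 0.033 with upper-quartile factors, 0.013 with at least 1 CPM in 3 libraries and 0.00047 with DESeq2, and ran from -0.045 to 0.0070 with 1 library left out. CASP4 ran from -0.034 to 0.16 and APAF1 from -0.30 to 0.28 at 10 µM against DMSO, and CASP4 from -0.019 to 0.18 and APAF1 from -0.37 to 0.21 at 10 µM against 5 µM. The highest APAF1 values and the lowest CASP4 values at 10 µM were those without 10 µM replicate 1. Removing the length and GC trend put APAF1 at 0.077 against DMSO.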
